A study of Mus musculus with 8 samples.

Results

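The genes of mitochondrial ribosomal proteins were followed here through ChIP-seq peak lists of the chromatin remodelers Chd7 and Chd8. The members were all RefSeq protein-coding genes with the symbol Mrpl or Mrps followed by a number, with or without a letter at the end. They numbered 78 of 21887 protein-coding genes, 49 named for the large and 29 for the small subunit. Chromatin came from cortices and corpora callosa of wild-type mice at postnatal day 7, from cells that bound magnetic beads against O4, a lipid antigen on maturing oligodendrocyte precursor cells (OPCs). The 8 libraries comprised 1 Chd8 ChIP, 2 Chd7 ChIPs, 2 mock ChIPs with rabbit IgG and 3 inputs (sonicated chromatin without antibody). The labels give no treatment or mutant allele for any library. The labels do not say whether the libraries came from separate animals.

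Mitochondrial ribosomes translate the few mRNAs that mitochondrial DNA encodes, all of them for subunits of the oxidative phosphorylation complexes. Their RNAs come from mitochondrial DNA, whereas all of their proteins are encoded in the nucleus, made in the cytosol and imported. Many of these proteins have a counterpart in the bacterial ribosome, and the others were added in the mitochondrial lineage. Chd7 and Chd8 are ATP-dependent remodelers that move nucleosomes and are often found at active promoters.

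The authors' peak lists held 18415 Chd8 peaks, 5282 and 6292 peaks for Chd7 replicates 1 and 2, 89 and 98 mock peaks and 109486, 178478 and 91628 input peaks. Read depth is unknown. Intervals are Clopper-Pearson exact 95% intervals over genes, which cover counting error only. Of the OPC markers Olig1, Olig2, Sox10, Pdgfra, Cspg4 and Gpr17, all but Cspg4 had a Chd8 peak at an end, beside 1 of 4 neuron, 1 of 4 microglia, 0 of 3 endothelial and 0 of 3 astrocyte markers. Over all protein-coding genes the Chd8 share was 41.0%. Input 3 had a peak at 4 of 6 OPC, 4 of 4 neuron, 0 of 4 microglia, 1 of 3 endothelial and 1 of 3 astrocyte markers. Of the OPC markers only Gpr17 had peaks of both Chd7 libraries. Peaks at a gene show occupancy, not expression.

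The starts of the 7 members with Chd7 in both libraries and a promoter entry are shown with 130 bases before and 30 bases from the start site. They come from RefSeq (GRCm38.p6, which is mm10, the build of the peak lists), which held a promoter for 69 of the 78 members. Capitals mark motifs found on either strand, searched as CCGGAAG (the core of ETS factors such as GABP), the palindromic core of NRF1, AAGATGGCG (YY1), ACTACAA (part of the site of Zfp143 and Thap11) and CACGTG (E-box). Mrpl39 and Mrps14 are the members with Chd7 at a start of their own, Mrps16 has the highest mean Chd7 fold, and Mrpl41, Mrps12, Mrps18b and Mrps27 follow, which like Mrps16 have an end of another gene within 1 kb.
Mrpl39 (chr16:84735215-84735374, minus strand): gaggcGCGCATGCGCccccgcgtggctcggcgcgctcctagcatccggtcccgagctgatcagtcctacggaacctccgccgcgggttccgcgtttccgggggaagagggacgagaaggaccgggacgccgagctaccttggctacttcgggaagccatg
Mrps14 (chr1:160195085-160195244, plus strand): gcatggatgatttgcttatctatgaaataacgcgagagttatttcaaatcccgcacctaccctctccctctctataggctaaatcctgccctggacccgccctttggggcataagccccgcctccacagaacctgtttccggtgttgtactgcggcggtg
Mrps16 (chr14:20393605-20393764, minus strand): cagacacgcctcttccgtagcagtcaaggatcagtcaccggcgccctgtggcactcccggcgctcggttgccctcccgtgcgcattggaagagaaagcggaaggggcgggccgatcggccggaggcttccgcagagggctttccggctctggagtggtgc
Mrpl41 (chr2:24975069-24975228, minus strand): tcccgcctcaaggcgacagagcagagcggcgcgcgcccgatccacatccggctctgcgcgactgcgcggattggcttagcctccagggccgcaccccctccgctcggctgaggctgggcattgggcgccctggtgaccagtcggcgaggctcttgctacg
Mrps12 (chr7:28741792-28741951, minus strand): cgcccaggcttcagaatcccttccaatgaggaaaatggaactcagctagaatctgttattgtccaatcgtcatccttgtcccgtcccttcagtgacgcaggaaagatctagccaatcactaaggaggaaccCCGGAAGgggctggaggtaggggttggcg
Mrps18b (chr17:35916411-35916570, minus strand): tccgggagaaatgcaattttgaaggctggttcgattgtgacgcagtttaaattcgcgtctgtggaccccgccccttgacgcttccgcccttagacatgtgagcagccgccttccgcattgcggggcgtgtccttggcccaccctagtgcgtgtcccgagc
Mrps27 (chr13:99344656-99344815, plus strand): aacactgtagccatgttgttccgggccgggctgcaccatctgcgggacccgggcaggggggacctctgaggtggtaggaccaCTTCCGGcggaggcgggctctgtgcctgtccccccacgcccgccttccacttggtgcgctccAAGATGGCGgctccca
The palindromic NRF1 motif of Mrpl39 began 125 bases before the start site, the ETS core of Mrps27 48 bases before it, and that of Mrps12 at the second transcribed base. A YY1 motif lay just downstream of the Mrps27 start, and the stretches printed for Mrps14, Mrps16, Mrpl41 and Mrps18b held none of these motifs. A longer window at Mrps18b, described with the promoters further on, held an ETS core.

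Chd8 lay at an end of nearly all members. A gene end is either boundary of the gene, and a peak was counted when it touched the 1 kb on either side. Chd8 peaks were found at 69 of 78 members (88.5%, 79.2 to 94.6), against 41.0% of all protein-coding genes. Chd7 replicate 1 had peaks at 12 members (15.4%, 8.21 to 25.3, all genes 10.4%) and replicate 2 at 26 (33.3%, 23.1 to 44.9, all genes 17.0%). Overlapping peaks of both Chd7 libraries, called reproducible regions, stood at 8 members (10.3%, 4.53 to 19.2), against 4.83% of all genes. The lower bound of that interval reaches the share of all genes. All 8 also had Chd8 at an end, and 4.77% of all genes had both. Chd8 rests on 1 library and has no replicate error, and shares are set side by side without a test, since genes are not replicates.

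Inputs had peaks at member ends more often than at other genes too. Input 1 had them at 29 members (37.2%, all genes 21.9%), input 2 at 43 (55.1%, all genes 28.4%) and input 3 at 56 (71.8%, all genes 45.2%). Neither mock had a peak at any member, for which the upper bound of the exact interval is 4.62% each and the limit set by 3 counts is 3.85% (all genes 0.0183% and 0.0137%). Of the highest Chd8 peaks of the 69 members, 55 touched a peak of input 3, the input that the labels assign to Chd8, 27 touched input 2 and 22 input 1. For input 3 that was 79.7% of members with Chd8, against 63.1% of all genes with Chd8. The share of all genes was not counted for inputs 1 and 2. With Chd8 peaks that touch input 3 removed, 17 members (21.8%) kept a Chd8 peak, against 16.7% of all genes. Track names inside the files would assign input 2 to Chd8 instead, and with that input removed the counts were 43 members (55.1%) and 29.1% of all genes. With any input removed they were 11 (14.1%) and 13.1%. The shares left by removal of input 3 or of any input lie close to those of all genes. Inputs 1 and 2 belong to the Chd7 libraries by the labels, and removal from each Chd7 list of the peaks that touch its own input left 3 members with a reproducible region (3.85%), against 1.75% of all genes. The track names would give input 3 to Chd7 replicate 2. With that exchange 0 members kept a region, against 0.758% of all genes. Removal of any input also left 0, against 0.539%.

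**Figure D1:**
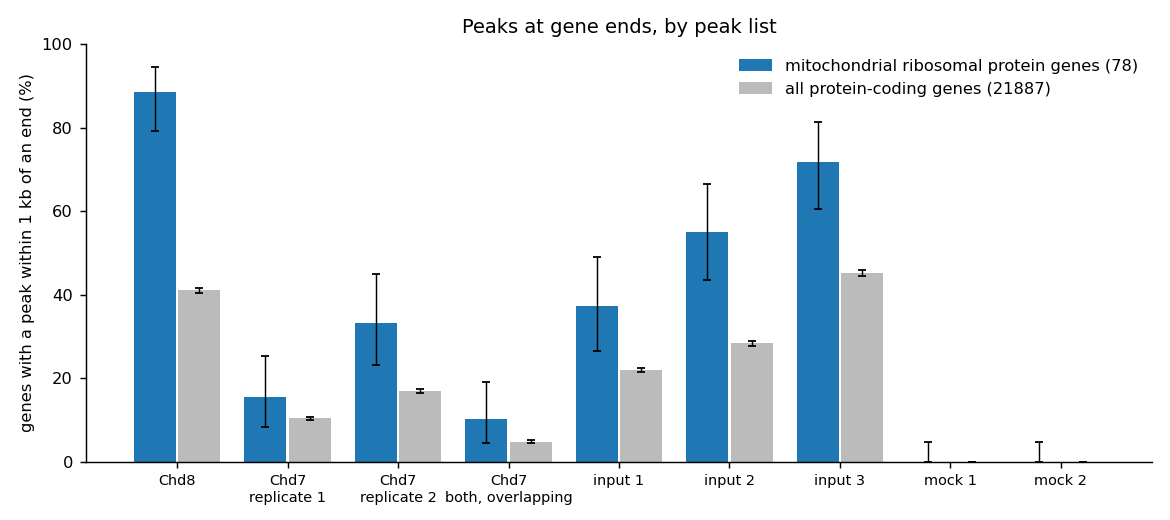
Share of genes with a peak within 1 kb of an end (y axis, %) in each peak list (x axis), for mitochondrial ribosomal protein genes and all protein-coding genes, with 95% exact binomial intervals. The members stand at 88.5% for Chd8 and 71.8% for input 3, against 41.0% and 45.2% of all genes, and at 0 in both mocks.

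Peaks of higher fold were also common among the members. The fold of a peak over the caller's local background is the authors' own value and describes peaks within a list. Over the 69 members the highest Chd8 fold at an end ranged from 3.83 to 10.8 with a median of 5.38 (quartiles 4.88 and 6.84), beside a median of 4.85 over all genes with Chd8 there. A fold of at least 5 was reached by 47 members (60.3% of 78), against 17.8% of all genes. Among genes with a Chd8 peak at an end, the shares were 68.1% of members and 43.5% of all genes. A −log10 q of at least 5 was reached by 28 members (35.9%), against 8.28% of all genes, where both shares count genes without a Chd8 peak too.

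Of the 10 highest folds, 9 belonged to large-subunit genes, which make up 45 of the 69 members with Chd8. Median Chd8 folds were 5.79 over large-subunit and 5.31 over small-subunit genes. Mrpl13, the counterpart of bacterial L13, had a fold of 10.8 with a −log10 q of 15.2 at the end that it shares with Mtbp, and a peak of input 1 stood there too. Mrpl1, a protein of the stalk through which spent tRNA leaves the ribosome, had 10.8 on chromosome 5 from 96210001 to 96210288, and no input had a peak at its ends. Mrpl44, which carries an RNase III-like fold, had 9.53 on chromosome 1 from 79775794 to 79776422, also without an input peak at its ends. Both are among the 10 members whose highest Chd8 peak touched no input. Mrpl39, which resembles threonyl-tRNA synthetases, had 9.46, and Mrpl20 had 9.39. Mrpl47, at the exit of the peptide tunnel, had 8.60 and Mrpl3, near the peptidyl transferase centre, had 8.50. Mrpl15 had 8.29 and Mrpl30 had 8.24. Mrps31, the only small-subunit member among the 10 highest, had 8.30 and no input peak. The highest Chd8 peaks of Mrpl39, Mrpl20, Mrpl47, Mrpl3, Mrpl15 and Mrpl30 each touched a peak of input 3. Those of Mrpl20 and Mrpl47 touched a peak of input 2 as well. With 1 Chd8 library, no spread is known against which neighbours in this order could be told apart.

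**Figure D2:**
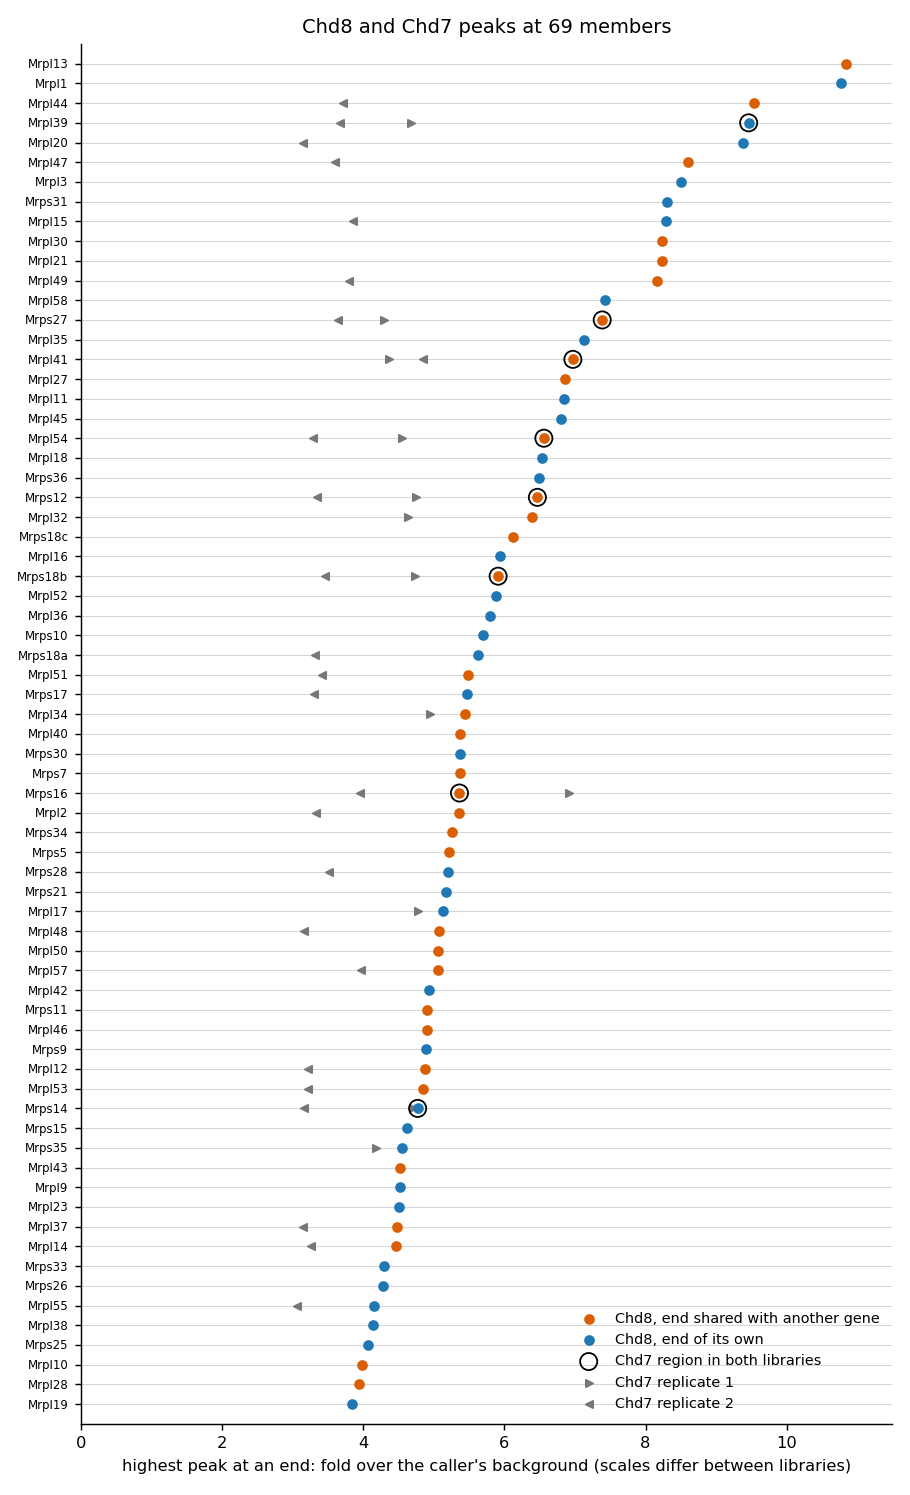
Highest fold over the caller's background at an end (x axis) for the 69 members with Chd8 (y axis, ordered by Chd8 fold), with Chd7 folds as triangles and rings around members that have Chd7 in both libraries. Chd8 runs from 3.83 at Mrpl19 to 10.8 at Mrpl13, and members with Chd7 are spread along the order.

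Most Chd8 peaks at the members lay at gene starts. Strand was known for 69 members through the promoter table. Of their starts 61 (88.4%, 78.4 to 94.9) had a Chd8 peak, against 40.3% of all starts, while of their far ends 6 (8.70%) had one, against 3.77% of all far ends. Of the 59 highest peaks that stood at a start, 51 covered it (86.4%, against 67.7% of all starts with Chd8). Their midpoints had a median position 13 bp downstream of the start, with quartiles 91 bp upstream and 135 bp downstream. Their median width was 602 bp, beside 543 bp over all starts with Chd8. The widest, 3104 bp, lay at Mrps18b with its midpoint at -1199 bp (negative is upstream), on the side of the neighbouring start of Ppp1r10.

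Starts close to another gene are frequent in this family, so own and shared ends were kept apart. A start here is the gene boundary on the side of transcription start, and it was called shared when an end of another protein-coding gene lay within 1 kb. That was true of 35 of 69 member starts (50.7%), against 15.3% of all starts. At 28 of these the nearest neighbouring end was itself a start, and the median distance was 113 bp. Chd8 was found at 32 of the 35 shared member starts (91.4%, 76.9 to 98.2), against 72.9% of all shared starts. It was found at 29 of the 34 own member starts (85.3%, 68.9 to 95), against 34.4% of all own starts. Input 3 had peaks at 21 of the own member starts (61.8%) and 27 of the shared ones (77.1%), against 35.8% and 65.9% of all such starts. Counted over genes, 36 members (46.2%) had Chd8 at an own end, against 29.9% of all genes, and 2 had reproducible Chd7 at one, against 3.19%. With Chd8 peaks that touch input 3 removed, 10 members (12.8%) had Chd8 at an own end, against 12.7% of all genes, and with peaks that touch any input removed 8 (10.3%) had it, against 10.1%. In both cases the members' share at own ends was close to that of all genes. With peaks that touch input 2 removed, the input given to Chd8 by the track names, 25 members (32.1%) had it, against 21.6%.

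**Figure D3:**
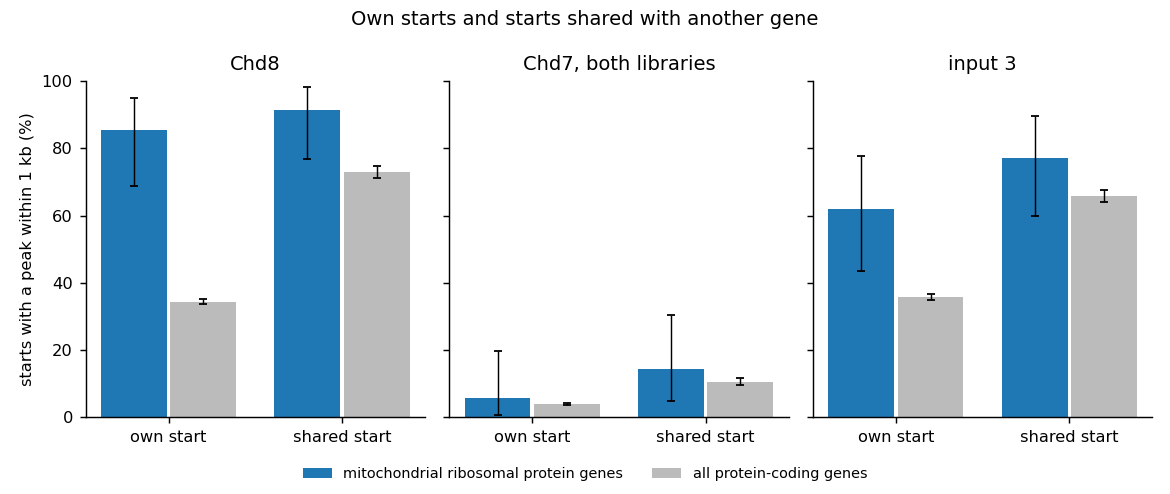
Share of gene starts with a peak within 1 kb (y axis, %) at own and shared starts (x axis), for Chd8, Chd7 regions found in both libraries and input 3, with 95% exact binomial intervals. For Chd8 the members stand at 85.3% of own and 91.4% of shared starts, against 34.4% and 72.9% of all starts.

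The position of the peak around own and shared starts was then described. At 30 shared starts the midpoint of the highest Chd8 peak had a median position of -52.5 bp from the member's start, and 19 of the 30 lay upstream. At 29 own starts the median lay 64 bp downstream, and 7 of the 29 were upstream. Over all starts with Chd8 the median midpoint lay 54 bp downstream. Own and shared starts of all genes were not compared in this way, so the difference cannot be called particular to the members. Median folds were 5.37 at shared and 5.62 at own starts. Several partners also serve mitochondria: Mrps11 and Mrpl46 start 42 bp apart and share 1 Chd8 peak (fold 4.90), so the 69 members rest on 68 distinct highest peaks. Mrps12 starts 136 bp from Sars2, the mitochondrial seryl-tRNA synthetase. Mrpl47 starts 302 bp from Ndufb5, a subunit of respiratory complex I, and Mrpl43 starts 779 bp from Twnk, the helicase of mitochondrial DNA. Others adjoin genes of cytosolic or nuclear machines, such as Mrpl32 beside Psma2 (a proteasome subunit, 205 bp), Mrpl49 beside Fau (192 bp) and Mrpl40 beside Hira, a histone chaperone (113 bp). These pairs were picked from the list after their values were seen.

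**Figure D4:**
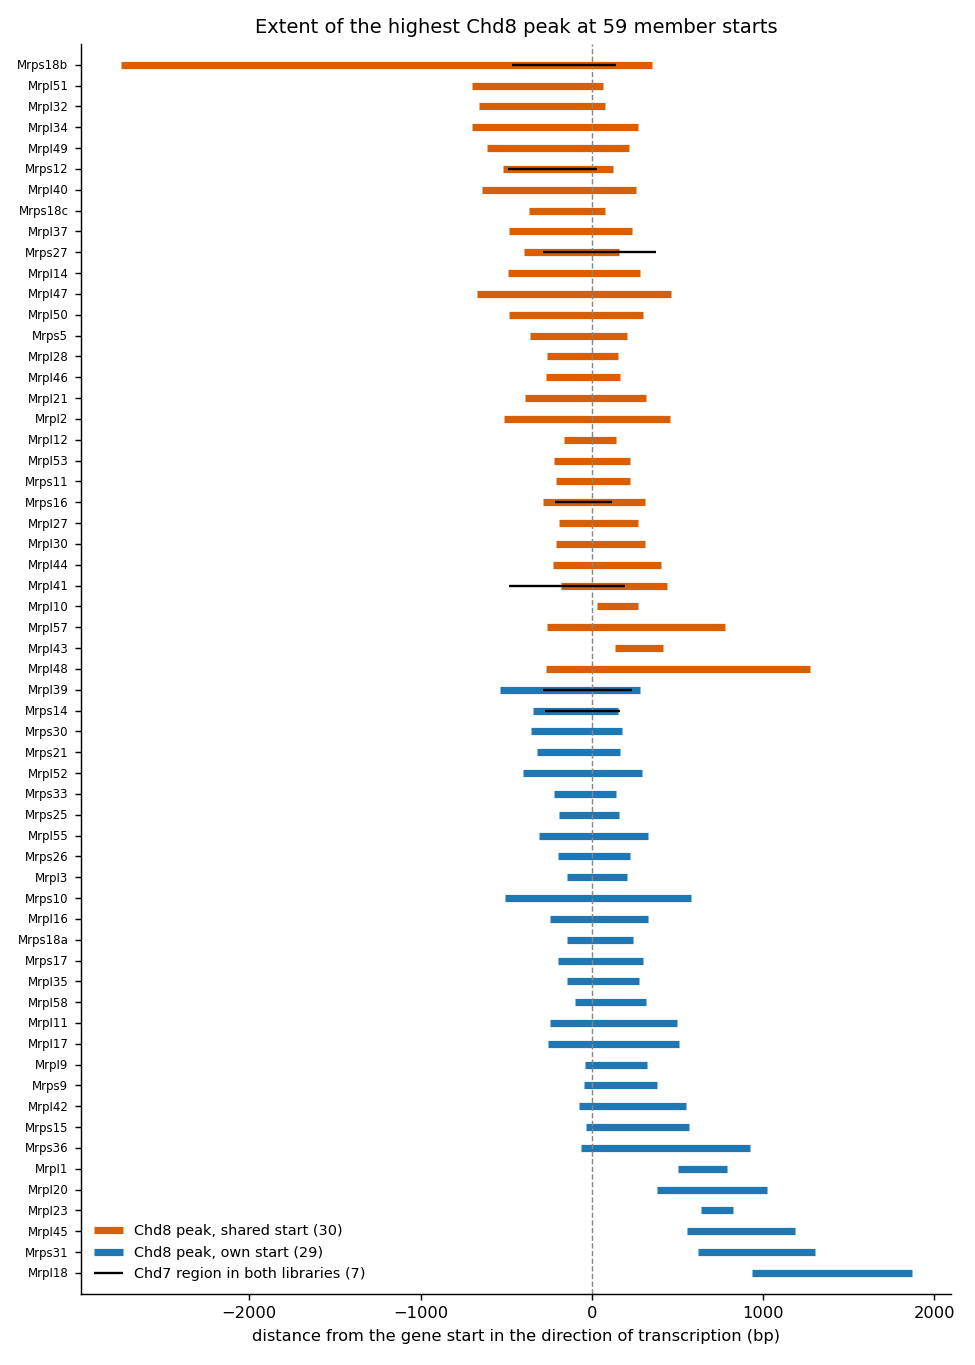
Extent of the highest Chd8 peak around 59 member starts (x axis, distance from the start in bp, transcription towards the right; 1 member per row), with own and shared starts in separate colours and Chd7 regions of both libraries as black lines. Peaks cover the start in 51 of 59 rows, and the 7 Chd7 regions drawn all lie across the start.

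The 8 members with Chd7 in both libraries were Mrpl39, Mrpl41, Mrpl54, Mrps12, Mrps14, Mrps16, Mrps18b and Mrps27. Each region covered the gene end, overlapped a Chd8 peak and overlapped a peak of input 3, and none touched a mock peak. Over all genes 98.9% of those with a reproducible Chd7 region also had Chd8 at an end. The 8 mean folds had a median of 4.07, beside 4.08 over all genes with such a region.

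Mrps16, the counterpart of bacterial S16, had Chd7 folds of 6.91 in replicate 1 and 3.96 in replicate 2 and a Chd8 fold of 5.36, in a region on chromosome 14 from 20393514 to 20393846. A far end of Cfap70 lies 556 bp away. Its replicate 1 peak had a −log10 q of 6.18, while its replicate 2 peak had 2.56. Mrpl41 had 4.36 and 4.85 in the Chd7 replicates and 6.97 in Chd8, on chromosome 2 from 24974903 to 24975579, with the start of Pnpla7 892 bp away. Mrps18b, one of several mitochondrial versions of bacterial S18, had 4.73 and 3.46 in the Chd7 replicates and 5.91 in Chd8, on chromosome 17 from 35916301 to 35916905, where all 3 inputs had a peak.

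At own starts only Mrpl39 and Mrps14 carried a reproducible Chd7 region (2 of 34, 5.88%, against 3.86% of all own starts). Mrpl39 had Chd7 folds of 4.68 and 3.67 and a Chd8 fold of 9.46, in a region on chromosome 16 from 84735009 to 84735532 that holds the sequence with the NRF1 motif printed above. Mrps14, the counterpart of bacterial S14, had 4.71 and 3.15 in the Chd7 replicates and 4.77 in Chd8, on chromosome 1 from 160194941 to 160195380. At both, peaks of input 3 but not of inputs 1 and 2 overlapped the Chd7 region. Shared starts had 5 of 35 (14.3%, against 10.6% of all shared starts). Mrps12, at the decoding centre of the small subunit, had 4.74 and 3.35 in the Chd7 replicates and 6.47 in Chd8, on chromosome 7 from 28741792 to 28742311, and it too was free of inputs 1 and 2. Mrps27, a pentatricopeptide repeat protein, had 4.29 and 3.64 in the Chd7 replicates and 7.39 in Chd8, on chromosome 13 from 99344483 to 99345144, and its partner Ptcd2 begins 89 bp away. Mrpl54, whose strand is not in the promoter table, had 4.54 and 3.28 in the Chd7 replicates and 6.56 in Chd8 at the end next to Apba3, on chromosome 10 from 81266603 to 81266999. These shares at starts lie close to those of all genes.

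Chd7 in 1 library alone was seen at 22 further members, 4 in replicate 1 and 18 in replicate 2, and 48 members had it in neither. Those of replicate 1 were Mrpl17, Mrpl32, Mrpl34 and Mrps35, with folds from 4.18 to 4.95. Those of replicate 2 ran from 3.06 at Mrpl55 to 3.97 at Mrpl57 and included Mrpl12, which binds the mitochondrial RNA polymerase in human cells (3.22), Mrpl44 (3.72) and Mrpl15 (3.85). Of the 30 members with Chd7 in either library (38.5%, all genes 22.0%), 29 had Chd8, and the exception was Mrps23 with a replicate 2 fold of 3.43 at its far end. The members with Chd7 in both libraries had a median Chd8 fold of 6.51, beside 5.37 over the 61 others with Chd8.

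No Chd8 peak stood at either end of Mrpl4, Mrpl22, Mrpl24, Mrpl33, Mrps2, Mrps6, Mrps22, Mrps23 and Mrps24. For some of them the gene boundary lies away from the start in the promoter table. Promoter starts of Mrps2, Mrpl22 and Mrpl24 lay 2115, 1621 and 1413 bp from the boundary, and each lay inside a Chd8 peak, with folds of 7.61, 5.73 and 4.20. The promoter start of Mrps23 lay 10282 bp from the boundary, also inside a Chd8 peak (4.27). Counted at promoter starts, a setting chosen after the data were seen, 65 of 69 members (94.2%) had Chd8 within 1 kb, against 43.6% of all genes in that table. With ends and promoter starts together 73 of 78 (93.6%) had Chd8, against 44.2% of all genes. Of the remaining 5, Mrpl4, which has no entry there, had the nearest Chd8 peak 1546 bp from an end. Mrps22, Mrps6, Mrps24 and Mrpl33 had it 24820, 38790, 53752 and 74990 bp away. Mrpl23 and Mrpl18 were just inside the 1 kb limit with peaks 638 and 935 bp from an end, and Mrpl24 and Mrpl22 just outside it at 1239 and 1357 bp.

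Members of both subunits and of both ancestries had Chd8 at most of their genes. Chd8 was at 45 of 49 Mrpl genes (91.8%) and 24 of 29 Mrps genes (82.8%), and reproducible Chd7 at 3 and 5 of them. The symbols are older than the structures: Mrps30 and Mrps18a are built into the large subunit in mammals. Of 48 members with a counterpart in bacteria 41 had Chd8 (85.4%), and of 30 without one 28 had it (93.3%). Reproducible Chd7 was found at 4 members of each class.

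Member promoters were rich in CpG and in a few motifs. In the 300 bases from 250 before to 50 after the start, the ratio of observed to expected CpG had a median of 0.818 over 69 members, against 0.577 over 17492 protein-coding genes, with GC contents of 58.3% and 56.3%. The ETS core CCGGAAG or its reverse complement was present in 24 members (34.8%), against 11.9% of all promoters. The YY1 motif was present in 8 (11.6%, against 1.92%), the NRF1 motif in Mrpl9, Mrpl32 and Mrpl39 (4.35%, against 1.33%), ACTACAA in 5 (7.25%, against 3.82%) and the E-box in 5 (7.25%, against 7.91%). Of the 7 members with reproducible Chd7 in the table, 3 had the ETS core, namely Mrps12, Mrps18b and Mrps27. A match of letters is no evidence of binding.

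Other genes of mitochondrial translation had Chd8 about as often as the ribosomal proteins. Of 54 such genes (ribosomal proteins under other symbols, translation factors, aminoacyl-tRNA synthetases with the amidotransferase that completes glutaminyl-tRNA, and factors of ribosome assembly and rRNA modification) 47 had Chd8 at an end (87.0%) and 3 had reproducible Chd7 (5.56%). The 3 were Sars2, at the region it shares with Mrps12, Ears2 with a mean Chd7 fold of 4.44 and the assembly GTPase Mtg1 with 3.61. The highest Chd8 folds among them were those of Aurkaip1 (7.88), a small-subunit protein, and the helicase Ddx28 (7.40). Translation factors had 8 of 11, synthetases 16 of 20 and assembly factors 18 of 18. Cytosolic ribosomal protein genes, for comparison, had Chd8 at 71 of 75 (94.7%), reproducible Chd7 at 5 (6.67%) and a median Chd8 fold of 5.90. Input 3 had peaks at 79.6% of the other mitochondrial translation genes and 73.3% of the cytosolic ribosomal protein genes.

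**Figure D5:**
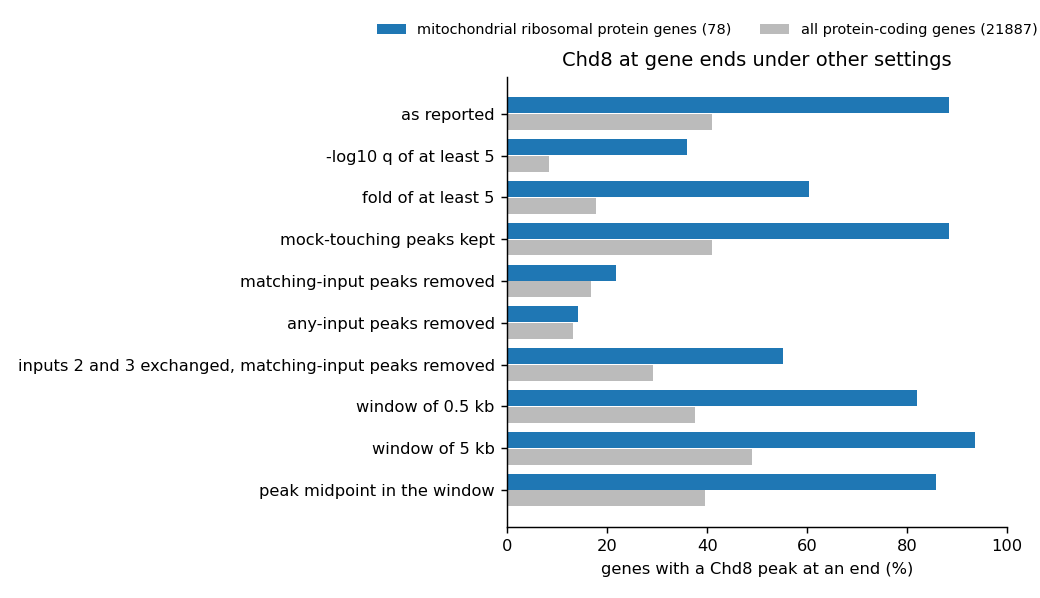
Share of genes with a Chd8 peak at an end (x axis, %) as reported and under 9 other settings (y axis), for mitochondrial ribosomal protein genes and all protein-coding genes. Members stand well above all genes for stronger peaks and other windows, and at 21.8% and 14.1%, against 16.7% and 13.1%, once peaks that touch input 3 or any input are removed.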

How the data were processed

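ChIP-seq peak lists of 8 libraries were grouped by their titles. Per the submitters' processing notes, reads were handled with Bowtie2, SAMtools, Picard and MACS on mm10. Tool versions, settings and the controls for calling are not stated in the labels. Each list has, as deposited by the authors, a score per peak (about 10 times the −log10 q), the fold over local background (a ratio), and the −log10 p and −log10 q. The score was not used. Folds of different libraries were not compared. The labels name antibodies to Chd7, Chd8 and rabbit IgG for the ChIPs, while the extraction notes name the O4 antibody, and this difference is unresolved.

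Peaks touching a peak of either mock by 1 bp were removed from the ChIP lists, which left 18350 Chd8, 5218 Chd7 replicate 1 and 6237 replicate 2 peaks. None of the removed peaks stood at a member. Overlapping peaks of both Chd7 libraries were merged into 1383 reproducible regions, with the mean of both folds. Gene boundaries were those of RefSeq GRCm38.p6, and strand came from its promoter table. Counts are given beside the same count over all protein-coding genes, with no test over genes, since members are not replicates. The code was tested on simulated peaks. Python 3.11.15, pandas 2.3.3 and scipy 1.17.1 were used.

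The members, lists and alternatives were chosen with earlier results of these data known. Named were all members with reproducible Chd7, the 10 with the highest Chd8 fold, those without Chd8, those nearest the 1 kb limit and, among the other translation genes, those with Chd7 and the 2 highest in Chd8. Other names were added after their values were seen. Alternatives were peaks of a fold or a −log10 q of at least 5, mock-touching peaks kept, input peaks removed, windows of 0.5 and 5 kb, midpoints in place of a touch, a reciprocal overlap of 50%, both Chd7 libraries at the same end, each Chd7 library alone, other definitions of a shared end, gene starts only and, added later, promoter-table starts.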

Additional observations from a re-analysis of the deposited data

How the results depend on the processing

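Of 78 members, 69 had Chd8 at an end. That count stayed within 1.5 times with a fold of at least 5 (47, all genes 17.8%). It did so too with windows of 0.5 and 5 kb (64 and 73, all genes 37.5% and 49%). The same held for midpoints (67, all genes 39.6%), gene starts only (61, 32.2%), promoter starts (65 of 69, 43.6%) and mock-touching peaks kept (69, 41%). The count was 28 with a −log10 q of at least 5 (all genes 8.28%) and 17 with matching-input peaks removed (16.7%). With inputs 2 and 3 exchanged it was 43 (29.1%), and with any-input peaks removed 11 (13.1%). Of the 36 members with Chd8 at an own end, 14 reached a −log10 q of 5 (17.9% of 78, all genes 5.04%). A fold of 5 was reached by 23 (29.5%, all genes 11.6%). After matching-input removal 10 remained (12.8%, all genes 12.7%), and after any-input removal 8 (10.3%, all genes 10.1%). With inputs 2 and 3 exchanged 25 remained (32.1%, all genes 21.6%). The 8 members with reproducible Chd7 became 3 with matching-input peaks removed and 0 with inputs exchanged, with any input removed, with a fold of at least 5 or with a −log10 q of at least 5. The last 2 settings left 3 and 0 genes among all protein-coding genes. Of all genes, 1.75% kept a region with matching inputs removed, 0.758% with inputs exchanged and 0.539% with any input removed. A count of 0 among 78 members cannot be told from shares as low as these. Each Chd7 library alone gave 12 to 26 members, 12 without replicate 2 (15.4%, all genes 10.4%) and 26 without replicate 1 (33.3%, all genes 17%). The 8 members with both Chd7 and Chd8 became 0 under each of these 5 settings, matching-input removal included. Of all genes, 0.58%, 0.557% and 0.439% kept both with matching, exchanged and any inputs removed, and 3 and 0 genes with the fold and −log10 q limits. The 8 members became 12 without replicate 2 (15.4%, all genes 10%) and 25 without replicate 1 (32.1%, all genes 15.3%). The 2 members with Chd7 at an own end became 0 with exchanged or any inputs removed and with stronger peaks. A window of 5 kb gave 5 (6.41%, all genes 4.4%). Own-end counts were 5 without replicate 2 (6.41%, all genes 7.03%) and 10 without replicate 1 (12.8%, all genes 11.7%). Removal of peaks leaves fewer to count by construction, and beyond that the cause was not tested. No paired analysis was possible because no result comes from a test. Unknown read depth and 1 Chd8 library limit all values. Over 9 settings, the highest Chd8 peaks of 17 named members were left in 114 cases and lost in 39. Of these members, 10 were picked for the highest Chd8 fold, so their passing the fold limit was fixed in advance and counts for nothing.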

Other observations

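At Mrpl36 the higher of its Chd8 peaks stood at the far end (fold 5.79), which is not where most members had theirs. RefSeq's promoter start of that gene lies 2506 bp inside the boundary, and that same peak covered it. Chd7 replicate 1 also had peaks within 1 kb of a promoter start of Mrpl18, Mrpl24, Mrpl36 and Mrpl48 and at neither of their ends.

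Among the 69 members with Chd8, the highest peak touched no input peak at 10, namely Mrpl1, Mrpl16, Mrpl19, Mrpl28, Mrpl35, Mrpl42, Mrpl44, Mrpl50, Mrps10 and Mrps31 (14.5%, against 27.9% of all genes with Chd8). Their median fold was 5.82, beside 5.38 over the 59 members whose peak touched at least 1 input. The highest of these folds was 10.8 at Mrpl1 and the lowest 3.83 at Mrpl19.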
